A study of Mus musculus with 8 samples.

Results

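The 9 genes described here, *Drd1*, *Drd2*, *Adora2a*, *Ppp1r1b*, *Rgs9*, *Penk*, *Tac1*, *Pde10a* and *Rarb*, are genes by which the projection neurons of the striatum are recognised, and they were measured here in primary motor cortex (M1). They were chosen by name, not by their values, and all 9 were found among the 38031 genes to which the counts were reduced. Of these genes, 9959 passed the filter on low counts (more than 8 CPM, counts scaled to library size, in at least 4 libraries), and 5 of the 9 were among them: *Ppp1r1b*, *Rgs9*, *Penk*, *Pde10a* and *Rarb*. *Drd1*, *Drd2*, *Adora2a* and *Tac1* were under the filter, and their comparisons come from the same test without it.

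Male Swiss Webster mice were injected in M1 at P21 to P25 with a lentivirus that carried mCherry and either *Fezf2 shRNA* or *non-silencing shRNA* (the control), and the M1 tissue that showed mCherry was collected at P49 to P53. Each treatment has 4 libraries of total RNA. A *Synapsin I* promoter, which is active in neurons, drove both mCherry and the shRNA, so that other cells of the dissected tissue should not carry the knockdown, and neurons that the virus missed were collected with the rest. The labels number the samples and do not say more about their origin, so p values measure the spread between these samples. In bulk tissue, fewer cells of a type and less RNA per cell cannot be told apart.

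Most neurons of the striatum are GABAergic projection neurons of a direct or an indirect pathway. The direct pathway neurons carry the dopamine D1 receptor (*Drd1*) and make substance P (from *Tac1*), and the indirect pathway neurons carry the D2 receptor and an adenosine receptor (*Drd2*, *Adora2a*) and make enkephalin (from *Penk*). Both share DARPP-32 (*Ppp1r1b*), the phosphodiesterase PDE10A (*Pde10a*) and RGS9 (*Rgs9*), which act in or upstream of cyclic AMP signalling. They also share the retinoic acid receptor beta (*Rarb*), a nuclear receptor. The cortex lies over the striatum, separated from it by white matter, and cortical neurons also use some of these genes, such as *Drd1* in deep layers and *Penk* in interneurons.

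The libraries had between 54684016 and 58003814 counts over the 38031 genes. *Fezf2*, the targeted gene, was 13.2 ± 0.645 CPM in the controls and 10.8 ± 0.402 CPM with *Fezf2 shRNA* (SD, n = 4 each), and the treatments did not overlap. Its log2 fold change was -0.29 (standard error 0.0781), which did not pass the threshold with edgeR (adjusted p = 0.0824) and was the largest separation an exact permutation test of 4 against 4 can give (two-sided p = 0.0286). Cortical markers were present as the tissue label says: *Slc17a7*, the vesicular glutamate transporter of cortical projection neurons, ranged from 492 to 638 CPM over all 8 libraries.

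Since reads were counted over introns as well as exons, levels of different genes were compared per kb of interval. *Ppp1r1b* had the highest mean level (2.90 CPM per kb), followed by *Penk* (2.64), *Drd1* (1.18), *Pde10a* (0.511), *Tac1* (0.372), *Rgs9* (0.107), *Rarb* (0.0633), *Adora2a* (0.0378) and *Drd2* (0.00696). Over the 8 libraries the range of *Ppp1r1b* overlapped that of *Penk*, that of *Pde10a* overlapped that of *Tac1*, *Rgs9* overlapped *Rarb* and *Rarb* overlapped *Adora2a*. The ranges of the other neighbours in this order did not overlap. *Slc17a7* had 45.1 CPM per kb and *Gad1*, which makes GABA, had 3.06 CPM per kb. The order changed when the same counts, those over introns included, were divided by the exonic length instead, which is not a level of exonic reads. *Pde10a* then came first (16.8 CPM per exonic kb) and *Drd1* seventh of the 9 (1.50), while *Adora2a* (0.261) and *Drd2* (0.185) remained last.

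**Figure D1:**
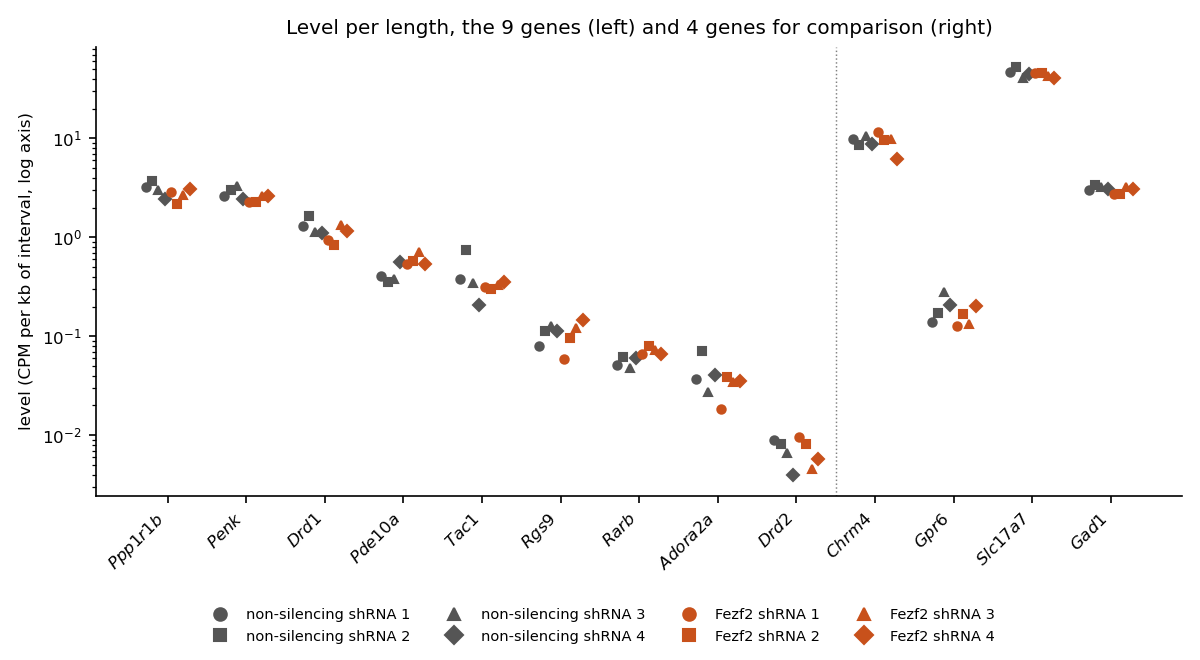
Level per kb of genomic interval (CPM per kb, log axis) of the 9 genes and of 4 genes for comparison in each library; grey marks are *non-silencing shRNA*, orange marks *Fezf2 shRNA*, and the shape gives the replicate. *Drd2* and *Adora2a*, the receptors of the indirect pathway, lie lowest (means 0.00696 and 0.0378), and *Slc17a7* highest (45.1).

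To see how low these levels are, the 1681 annotated receptor genes for smell and pheromones (named *Olfr* and *Vmn*), most of which cortical tissue should not use, were counted in the same way. Of these, 79.5% had no read in any library, and 9.88% had at least the mean of *Drd2* (0.381 reads per kb). Only 3.33% reached the mean of *Adora2a* (2.07 reads per kb) and 0.0595% that of *Drd1* (64.9 reads per kb). The same share reached the means of *Penk* and *Ppp1r1b*. The mean of *Drd2*, taken over its whole interval of 67.6 kb, of which 2547 bases are exonic, lay close to the 90th percentile of these genes (0.372 reads per kb).

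Other genes that mark striatal projection neurons or their development were read from a list of 26, of which 25 were in the count table. *Isl1*, a transcription factor of direct pathway neurons, had no read in 7 libraries, where a count of 0 allows up to 0.0532 to 0.0565 CPM (3 counts, counting error only), and 2 reads in *Fezf2 shRNA* replicate 3. *Gpr6*, a receptor of indirect pathway neurons, ranged from 0.294 to 0.646 CPM. Genes of the list with the highest levels per kb included *Chrm4* (9.39 CPM per kb), *Tmem158* (5.23), *Scn4b* (2.92), *Pde1b* (2.17), *Ptpn5* (1.28), *Rasd2* (1.16) and *Gnal* (0.734). Markers of the cholinergic interneurons of the striatum were also low: *Lhx8* was at 0 in all but 1 library, where it had 2 reads, and the summed level of the 3 genes in the table was 0.640 to 1.35 CPM in the controls and 0.824 to 1.22 CPM with *Fezf2 shRNA*. *Slc6a3*, the dopamine transporter of midbrain neurons, had at most 6 reads in a library. How much of each level came from striatal tissue, if any, was not tested.

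None of the 5 tested members passed the threshold of the comparison between treatments (adjusted p of at most 0.05 and a log2 fold change of at least 0.2 in either direction, edgeR's quasi-likelihood test), against 2.09% of the 9959 genes tested (1.96% as higher and 0.131% as lower with *Fezf2 shRNA*). Without the filter 0 of all 9 passed, against 0.348% of 29623 genes. At an unadjusted p under 0.05, 2 of the 5 tested members, *Pde10a* and *Rarb*, were counted, against 19.6% of all genes tested. DESeq2 placed these same 2 members past the threshold, both higher, where it called 7.55% of all genes in either direction and 6.61% as higher without its prior, and 7.37% and 6.48% with it. When every transcript interval was a row of its own, only intervals of *Pde10a* (10) and *Ppp1r1b* (4) passed the filter among the members. Of these, 0 passed the threshold with edgeR, against 5.62% of all intervals tested, and the other members, *Rarb* included, were not tested in this way. The median log2 fold change of the 5 tested members was -0.02 and that of all genes tested was -0.03.

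**Figure D2:**
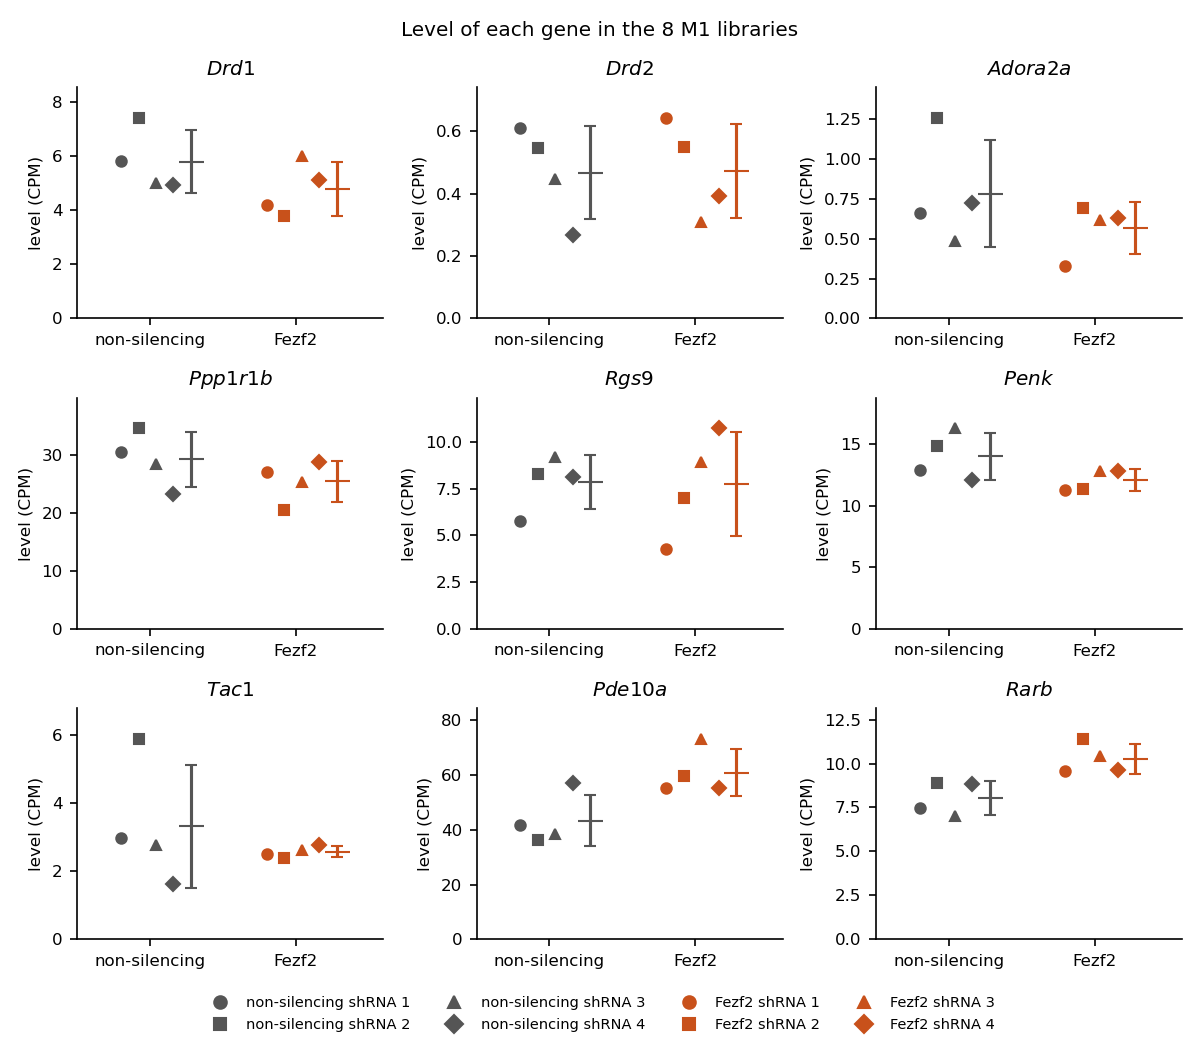
Level of each of the 9 genes (CPM) in each library, by treatment; grey marks are *non-silencing shRNA*, orange marks *Fezf2 shRNA*, the shape gives the replicate, and the bar beside each group is the mean ± SD (n = 4). The groups are apart only for *Rarb* (6.99 to 8.86 against 9.59 to 11.4 CPM), and control replicate 2 is the highest of the 8 libraries for *Drd1*, *Adora2a*, *Ppp1r1b* and *Tac1*.

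The receptors were described first. *Drd1* (ENSMUST00000021932, chr13:54051186-54055658, minus strand, 2 exons) encodes the D1 receptor, which raises cyclic AMP. It had 5.83, 7.43, 5.02 and 4.95 CPM in control replicates 1 to 4 and 4.19, 3.77, 6.02 and 5.14 CPM in the *Fezf2 shRNA* replicates. Control replicate 2 was highest and *Fezf2 shRNA* replicate 2 lowest, and the treatments overlapped. This gave a log2 fold change of -0.27 ± 0.176 (SE; edgeR without a filter, adjusted p = 0.582), and of -0.12 without control replicate 2.

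*Drd2* (ENSMUST00000075764, chr9:49340627-49408177, plus strand) encodes the D2 receptor, which lowers cyclic AMP. Its counts were 34, 29, 25 and 15 reads in the controls and 35, 30, 17 and 21 reads with *Fezf2 shRNA*, or between 0.266 and 0.644 CPM. Both treatments spread over nearly the same range. Its log2 fold change was 0.03 ± 0.365 (SE; edgeR without a filter, adjusted p = 0.993). That standard error is larger than the log2 fold change of *Rarb* (0.35), so a difference of that size, or one like that of *Pde10a* (0.49), could have been missed.

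*Adora2a* (ENSMUST00000105420, chr10:75316877-75334784, plus strand) encodes the adenosine receptor of indirect pathway neurons. It had 0.663, 1.26, 0.484 and 0.727 CPM in the controls and 0.331, 0.696, 0.617 and 0.633 CPM with *Fezf2 shRNA*, from 18 to 67 reads a library. Control replicate 2 lay above every other library, and the remaining values overlapped. A log2 fold change of -0.45 ± 0.351 (SE; edgeR without a filter, adjusted p = 0.612) became -0.12 without that library. Of 6 other dopamine and adenosine receptor genes, 1 was tested, *Adora1*, which did not pass the threshold with edgeR (0 also at an unadjusted p under 0.05), at 141 ± 11.3 CPM in the controls and 130.3 ± 11.5 CPM with *Fezf2 shRNA* (SD, n = 4 each). *Drd5*, the second receptor of the D1 class, was under the filter at 0.67 to 1.88 CPM.

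Inside the cell, DARPP-32 becomes an inhibitor of protein phosphatase 1 when protein kinase A phosphorylates it. *Ppp1r1b* (ENSMUST00000078694, chr11:98348404-98357796, plus strand, 7 exons), which encodes it, had 30.5, 34.6, 28.5 and 23.2 CPM in the controls and 27.0, 20.5, 25.3 and 28.8 CPM with *Fezf2 shRNA*. As for *Drd1*, control replicate 2 was highest and *Fezf2 shRNA* replicate 2 lowest. The difference was -0.20 ± 0.129 on the log2 scale (SE; edgeR, adjusted p = 0.400; two-sided exact permutation test, p = 0.286).

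An annotated gene on the opposite strand, *1700003D09Rik*, covers 75.4% of the *Ppp1r1b* interval. The study's methods do not mention strand in counting, so reads of both genes were taken as not told apart there. The 5′ segment of *Ppp1r1b* (chr11:98348404-98350854) lies almost wholly before that gene. It had 5.69 to 7.73 CPM in the controls and 5.50 to 7.54 CPM with *Fezf2 shRNA*, and the log2 ratio of the means was -0.07 (exact permutation test, p = 0.571). Its level per kb (2.78 CPM) was close to that of the shared segment (2.95 CPM), so that *Ppp1r1b* stays among the highest of the 9 genes when the shared segment is left out.

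*Rgs9* (ENSMUST00000020920, chr11:109225355-109298129, minus strand) encodes a protein that shortens the signal of G proteins. It had 5.77, 8.26, 9.18 and 8.14 CPM in the controls and 4.29, 7.02, 8.93 and 10.7 CPM with *Fezf2 shRNA*. Replicate 1 of either treatment was the lowest of its group, and the treatments overlapped over most of their range. On the log2 scale the difference was -0.02 ± 0.243 (SE; edgeR, adjusted p = 0.978) and 0.18 without *Fezf2 shRNA* replicate 1.

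PDE10A breaks down cyclic AMP and cyclic GMP. *Pde10a* (ENSMUST00000024647, chr17:8880426-8982367, plus strand, 22 exons) had 41.6, 36.3, 38.4 and 57.0 CPM in the controls and 55.3, 59.5, 73.2 and 55.1 CPM with *Fezf2 shRNA*. Control replicate 4 lay inside the range of the *Fezf2 shRNA* libraries and the other 3 controls lay below it. The fitted fold change was 1.40 (log2 0.49, standard error 0.142), which did not pass with edgeR (adjusted p = 0.102; exact permutation test, p = 0.0857) and did with DESeq2 (adjusted p = 0.00974).

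The counts of nested transcripts of *Pde10a* were subtracted from each other to give 3 stretches that do not overlap. In the 5′ segment (chr17:8526801-8849984, 0.393% exonic) the mean was 159 ± 47.3 CPM in the controls and 206 ± 60.3 CPM with *Fezf2 shRNA* (SD, n = 4 each), with a log2 ratio of 0.38 (exact permutation test, p = 0.314). The middle segment (chr17:8849985-8945568) had 21.8 to 34.0 CPM in the controls and 36.9 to 48.2 CPM with *Fezf2 shRNA*, with no overlap, a log2 ratio of 0.57 and the smallest p this design allows (exact permutation test, p = 0.0286). In the 3′ segment (chr17:8945569-8982391) the log2 ratio was 0.40 (exact permutation test, p = 0.143). Control replicate 4 was the lowest library in the 5′ segment, at 93.9 CPM, and the highest control in the other segments, at 34.0 and 31.6 CPM. These 3 segments were chosen after the values of *Pde10a* were seen.

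**Figure D3:**
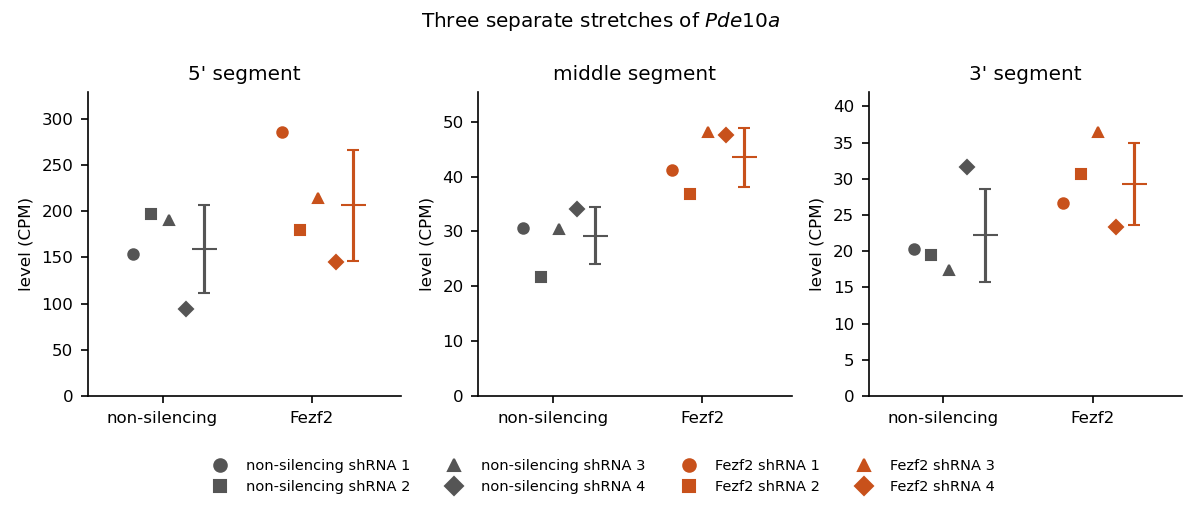
Level (CPM) of 3 separate stretches of *Pde10a* in each library, by treatment; colours and shapes stand for treatment and replicate, and bars are means ± SD (n = 4). The treatments are apart in the middle segment (21.8 to 34.0 against 36.9 to 48.2 CPM) and overlap in the others.

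The neuropeptide precursors came next. *Penk* (ENSMUST00000070375, chr4:4133531-4138477, minus strand) encodes proenkephalin, and 157 bases of its interval are shared with *A830012C17Rik* on the other strand, which had at most 92 reads in a library. It had 12.9, 14.8, 16.3 and 12.1 CPM in the controls and 11.3, 11.4, 12.8 and 12.8 CPM with *Fezf2 shRNA*. The *Fezf2 shRNA* values overlapped the lower controls, and *Penk* varied least of the 9 genes, with the highest library 1.44 times the lowest. Its log2 fold change was -0.22 ± 0.108 (SE; edgeR, adjusted p = 0.290; exact permutation test, p = 0.114).

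*Tac1* (ENSMUST00000090679, chr6:7555074-7562976, plus strand) encodes the precursor of substance P and neurokinin A. Its controls had 2.98, 5.89, 2.76 and 1.63 CPM, and the *Fezf2 shRNA* libraries had 2.50, 2.40, 2.61 and 2.77 CPM. The *Fezf2 shRNA* libraries lay close together inside the range of the controls, which control replicates 2 and 4 set. The fitted value was -0.36 ± 0.298 on the log2 scale (SE; edgeR without a filter, adjusted p = 0.642) and turned to 0.08 without control replicate 2. Genes such as *Tac1* can respond to cyclic AMP through the short element TGACG, and 2 copies of it, read on the minus strand, stand in the 250 bases before the start site that RefSeq gives on GRCm38.p6, in windows here with the element in capitals.
Tac1, chr6:7554858-7554874, plus strand: aaattgCGTCAtttcga
Tac1, chr6:7555012-7555028, plus strand: caggctCGTCAcgcctg
Of 32544 promoters searched on both strands over the same length, 17.8% held this element, and *Tac1* was the only one of the 6 members with a promoter sequence (8 sequences, for *Tac1*, *Drd1*, *Drd2*, *Rgs9*, *Pde10a* and *Rarb*) to hold it. A match is a description of the sequence and not of any binding.

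In the list of opioid and tachykinin signalling, 1 of 7 genes was tested, *Oprd1*, the delta opioid receptor, and 0 passed the threshold with edgeR (0 at an unadjusted p under 0.05). It had 19.5 ± 1.80 CPM in the controls and 18.7 ± 1.17 CPM with *Fezf2 shRNA* (SD, n = 4 each). *Pdyn*, the dynorphin precursor of direct pathway neurons, was under the filter, with 4.56 to 4.93 CPM in the controls and 4.32 to 5.90 CPM with *Fezf2 shRNA*.

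*Rarb* (ENSMUST00000063750, chr14:16430839-16575543, minus strand, 8 exons) encodes a nuclear receptor that binds retinoic acid and is needed for striatal neurons to develop. It had 7.50, 8.86, 6.99 and 8.81 CPM in the controls and 9.59, 11.4, 10.5 and 9.61 CPM with *Fezf2 shRNA*. Every *Fezf2 shRNA* library lay above every control, as in 7.41% of all genes tested. The fitted fold change was 1.28 (log2 0.35, standard error 0.108), with an exact permutation p of 0.0286, the smallest possible, an adjusted p = 0.114 with edgeR and an adjusted p = 0.0367 with DESeq2. The last 4624 bases of its interval, 3.20%, are shared with *Top2b* on the other strand, and their reads were likewise taken as not told apart there. *Top2b* had 5189 to 5664 reads in each library (mean 76.8 reads per kb), against 390 to 623 for *Rarb* (mean 3.47 reads per kb). Reads of *Top2b* could therefore be a large share of those counted for *Rarb*, in its level, its place in the order and its fold change. That share was not tested. *Top2b* itself had a log2 fold change of -0.03 (standard error 0.0521).

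*Rarb* is a known target of the receptors of its own family, and its promoter holds the direct repeat that they bind, GTTCACNNNNNGTTCAC. The repeat is shown here because *Rarb* was the member whose treatments did not overlap. It starts 52 bases before the RefSeq start site on GRCm38.p6, inside the first exon of the GENCODE transcript counted here, which begins farther upstream, with both copies of the repeated unit in capitals.
Rarb, chr14:16575506-16575534, minus strand: ggaaggGTTCACcgaaaGTTCACtcgcat
Only 2 of the 32544 promoters, 0.00615%, held the repeat on either strand, those of *Rarb* and *Gm41579*. The unit GTTCAC alone, which the repeat contains, stood in 7.64%. Other genes of retinoid signalling were read from a list of 9. Of the 3 tested genes 0 passed with edgeR, 0 were at an unadjusted p under 0.05, and their median log2 fold change was -0.10. They were the receptor genes *Rara* (-0.10, standard error 0.149), *Rxra* (-0.06, standard error 0.0921) and *Rxrb* (-0.11, standard error 0.0813). *Crabp1*, which binds retinoic acid in the cell, had at most 4 reads in a library.

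The median difference between treatments rose with the length of genes in these libraries, from -0.12 on the log2 scale for genes under 10 kb to 0.29 for genes over 300 kb, and the members differ in length. *Pde10a* and *Rarb* have intervals of 102 and 145 kb, and the 1297 tested genes between 100 and 300 kb had a median log2 fold change of 0.15. Within that class 97.8% of genes had a value at or below that of *Pde10a* and 90.7% one at or below that of *Rarb*. *Ppp1r1b* and *Penk* belong to the 2154 tested genes under 10 kb. With an offset that removes the trend of counts with length from each library, the log2 fold change was 0.39 for *Pde10a*, 0.21 for *Rarb*, -0.10 for *Ppp1r1b* and -0.10 for *Penk*, none past the threshold, and 2 genes in all were past it. The part of gene length in these differences was not tested beyond this offset.

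**Figure D4:**
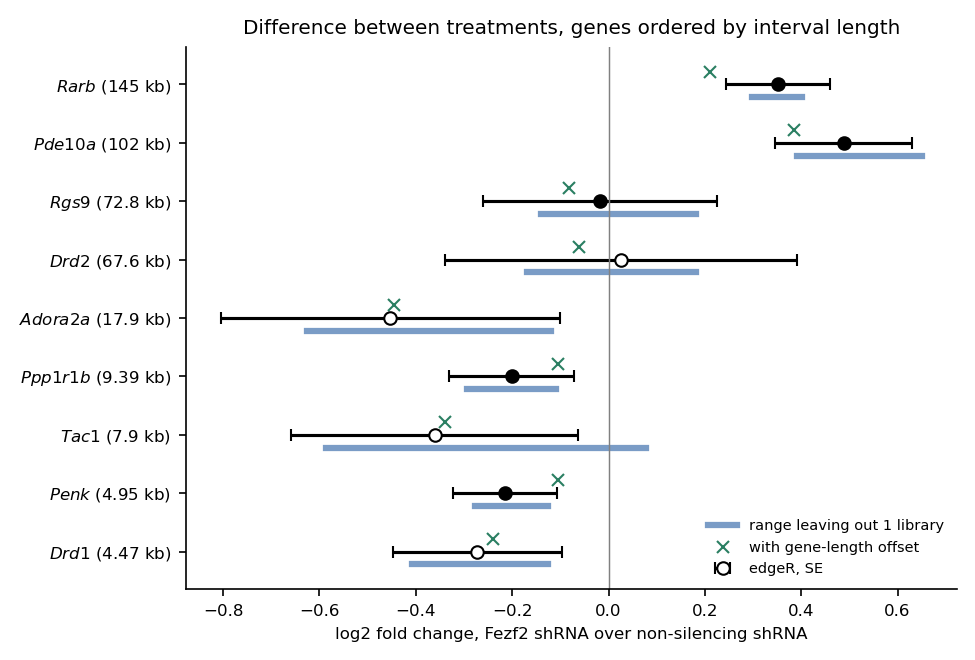
Log2 fold change of *Fezf2 shRNA* over *non-silencing shRNA* for the 9 genes, ordered by interval length (kb in brackets). Black points are edgeR estimates with standard errors (open where a gene was under the filter), blue bars the range when 1 library is left out, and green crosses the estimate with the gene-length offset. *Pde10a* (0.49) and *Rarb* (0.35) lie above 0 in every case, and the ranges of *Tac1*, *Drd2* and *Rgs9* cross 0.

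The 9 genes did not all rise and fall together over the libraries. Their summed level, to which *Pde10a* and *Ppp1r1b* give most, was 108 to 118 CPM in the controls and 115 to 140.3 CPM with *Fezf2 shRNA*. Without *Pde10a* and *Rarb*, the sum was 59.3, 72.8, 62.7 and 51.0 CPM in the controls and 50.2, 46.3, 56.7 and 61.3 CPM with *Fezf2 shRNA*, so that the highest library changed from *Fezf2 shRNA* replicate 3 to control replicate 2. Control replicate 2 was the highest library for 4 of the 9 genes (*Drd1*, *Adora2a*, *Ppp1r1b* and *Tac1*) and the lowest for *Pde10a*. Of the 36 pairs of members, 20 had a Pearson's r above 0 over the 8 libraries, and the median r was 0.0584. Every pair among *Drd1*, *Ppp1r1b*, *Penk* and *Tac1* had r above 0, from 0.538 to 0.785. *Pde10a* and *Rarb* each had r below 0 with every one of these genes, from -0.724 to -0.153. This grouping was made after the values were seen.

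The closest pair was *Ppp1r1b* and *Tac1*, with r = 0.785 (exact permutation test, p = 0.0284, adjusted p = 0.354 over 63 relations) and Spearman's rho = 0.952 (exact permutation test, p = 0.00114, adjusted p = 0.0719). Without the 2 libraries farthest from the median of *Ppp1r1b*, r was 0.890. *Drd1* and *Ppp1r1b* had r = 0.770 (exact permutation test, p = 0.0270, adjusted p = 0.354), which fell to 0.159 without the 2 libraries farthest from the median of *Drd1*, so that the size of r depends on them. Over all 8 libraries rho for this pair was 0.714 (exact permutation test, p = 0.0576, adjusted p = 0.397), and r was 0.706 after the mean of each treatment was removed. *Pde10a* ran opposite to *Ppp1r1b*, with r = -0.724 (exact permutation test, p = 0.0419, adjusted p = 0.354), and -0.659 after the mean of each treatment was removed. None of the 63 relations computed (36 pairs and the relation of each member to the deep-layer, GABAergic interneuron and oligodendrocyte lists) passed an adjusted p of 0.05, and all of them share libraries.

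Among the marker lists, the deep-layer cortical projection neurons varied with some of the members. With *Fezf2* left out, the 6 deep-layer markers were *Tle4*, *Foxp2*, *Ccn2*, *Rprm*, *Syt6* and *Nxph4*. The highest of them were *Tle4* (mean of 69.3 CPM over all libraries), *Foxp2* (22.3) and *Syt6* (21.8). Their summed level, that of all 6, was 125.5, 159.8, 126.1 and 131 CPM in the controls and 107, 86.7, 143 and 141 CPM with *Fezf2 shRNA*. Of the whole list of 7 genes, 4 were tested, and 0 passed with edgeR (1, *Fezf2*, was lower at an unadjusted p under 0.05). *Drd1* followed the sum with r = 0.901 (exact permutation test, p = 0.00253, adjusted p = 0.159) and rho = 0.833 (exact permutation test, p = 0.0154, adjusted p = 0.323). The value was 0.747 without the 2 libraries farthest from the median of the sum and 0.882 after the mean of each treatment was removed. *Tac1* had r = 0.472 with the same sum and -0.00102 without the 2 farthest libraries. With the summed markers of GABAergic interneurons *Tac1* had r = 0.734 (exact permutation test, p = 0.0675, adjusted p = 0.354) and rho = 0.333. That r was 0.588 without the 2 farthest libraries. Control replicate 2 is at the top and *Fezf2 shRNA* replicate 2 at the bottom for both the deep-layer sum and *Drd1*. The part of deep-layer neurons in the level of *Drd1* was not tested, nor was whether some of these markers' reads came from striatal tissue.

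**Figure D5:**
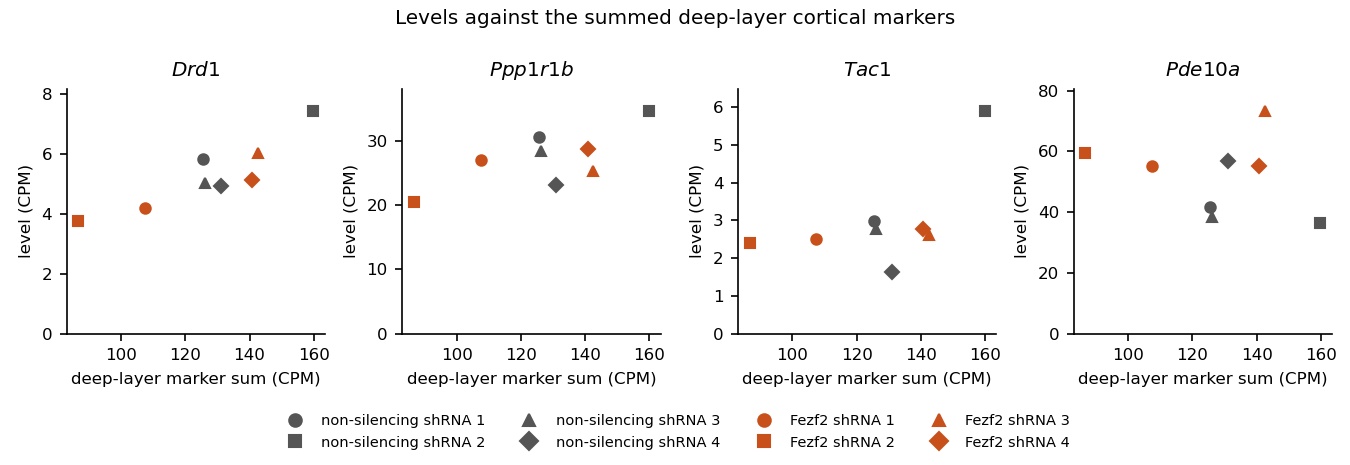
Level of 4 members (CPM) against the summed level of 6 deep-layer cortical markers without *Fezf2* (CPM) in the 8 libraries; colours and shapes stand for treatment and replicate. *Drd1* rises with the sum (r = 0.901), and *Tac1* stands apart in control replicate 2 only (5.89 CPM).

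Markers of other cell types that the dissected tissue could hold are given beside these results. Over 16 lists of pathway and marker genes, 67 of 118 genes in the count table were tested. With edgeR 0 passed the threshold, against 2.09% of all genes tested, and 15 had an unadjusted p under 0.05, against 19.6%. DESeq2 without its prior called 7, against 7.55% of all genes tested. The list whose median was farthest from 0 was that of oligodendrocytes, with 8 of 8 genes tested and a median log2 fold change of -0.53. Of these, 6 were lower at an unadjusted p under 0.05, where edgeR counted 19.6% of all genes in either direction. The summed level of the list was 1166 to 2112 CPM in the controls and 865 to 1420 CPM with *Fezf2 shRNA*. Of 8 genes of the ventricle wall and choroid plexus, 2 were tested and 0 passed with edgeR (1, *Dcx*, was higher at an unadjusted p under 0.05). The summed level of these 8 genes was 40.0 to 47.5 CPM in the controls and 45.7 to 56.4 CPM with *Fezf2 shRNA*. Most of it came from *Dcx* (means 26.3 and 34.4 CPM, controls first) and *Dlx1* (12.3 and 11.4 CPM), while *Foxj1* (1.66 and 1.34 CPM) and *Ttr* (1.13 and 1.34 CPM) were low. Within that list *Ccdc153* and *Tmem212* were at 0 in some libraries and reached 0.532 and 0.780 CPM in control replicate 4, against at most 0.0186 and 0.0368 CPM with *Fezf2 shRNA*. Of the 13 other striatal projection neuron genes tested, 0 passed with edgeR, 1 had an unadjusted p under 0.05 (*Foxp1*, a transcription factor also used in cortex; log2 fold change 0.32, standard error 0.0915), and the median was 0.02. In the list of cyclic AMP signalling partners, 0 of 12 tested genes passed with edgeR, 0 had an unadjusted p under 0.05, and the median was 0.01. The part of any of these cell types in the levels of the members was not tested.

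The genes most like the 5 tested members, by Pearson's r with the mean of their standardised log2 CPM over the 8 libraries, were *Zc3h13* (0.949), *Parva* (0.945), *Tent4a* (0.943), *Ptdss2* (0.941), *Myl4* (0.924), *Usp38* (0.905), *Snx19* (0.894), *Epb41l3* (0.887), *Tceal5* (0.886) and *Vsig2* (0.883), of 9940 genes ranked. No other striatal projection neuron gene was among them, and *Scn4b* came nearest (r = 0.480, place 1124). The mean joins members that ran opposite to each other, such as *Pde10a* with *Ppp1r1b* (r = -0.724) and with *Penk* (r = -0.707). A low place in this ranking therefore does not show that a gene varied apart from single members.

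The shRNA itself was set against the members' transcripts. Its 19-base sense strand is shown because the 7 bases in capitals pair with bases 2 to 8 of the guide strand, by which small RNAs choose their targets.
Fezf2 shRNA: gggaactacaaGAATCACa
None of the 9 members' annotated transcripts held these 7 bases, which 12.9% of the transcripts of 9935 tested genes did. The longest stretch of the shRNA in a member was 8 bases, in *Rgs9*, and *Fezf2* held all 19.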

How the data were processed

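Total RNA of M1 was sequenced in 4 *non-silencing shRNA* and 4 *Fezf2 shRNA* samples, grouped by their labels. Per the study's methods and the submitters' processing notes, the authors trimmed reads with fastq-mcf, aligned them to mm10 (GRCm38) with TopHat2 2.1.1 and assigned them to Ensembl transcripts with bedtools 2.26.0 multiCov. The deposited table holds the raw counts. A second table of the authors' DESeq2 results was not used here.

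Of 94647 transcripts, 91320 were found in GENCODE M21 and the others took 1.82% of counts. Each of 38031 genes was represented by 1 transcript, that of lowest Ensembl number. The members and the lists were chosen with earlier results of these data known. CPM were scaled with TMM. Tests used edgeR 4.0.16 in R 4.3.3 (quasi-likelihood, Benjamini-Hochberg over all genes tested) and, for single genes, two-sided exact permutation tests of log2(CPM + 0.1). DESeq2 1.42.0, other scalings and filters, a gene-length offset (loess, span 0.3), the widest transcript, a replicate block and leaving out each library were the alternatives. The edgeR step was tested on simulated data. Named genes were the 9 members, *Fezf2*, list genes past the threshold, the 8 other striatal genes with the highest CPM per kb and the 10 genes most like the members. Others were named after their values were seen. Some genes under this rule are not reported here. Sequences are from RefSeq (GRCm38.p6) and the study's list of shRNAs. No pair of libraries agreed within sampling noise. The spread between libraries, which includes counting error, sets the precision of each value. Further steps used Python 3.11.15 and scipy 1.17.1.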

Additional observations from a re-analysis of the deposited data

Results flagged for a closer look

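Of 68 groups of 4 libraries examined for a library far from the others, 1 was singled out, where chance gives about 1 in 20. The summed level of the deep-layer cortical markers, *Fezf2* included, was 174 CPM in control replicate 2, against 138 to 144 CPM in the other 3 controls. The same library was the highest for *Drd1*, *Adora2a*, *Ppp1r1b* and *Tac1*.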

How the results depend on the processing

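The count of genes past the threshold, 208, was 136 with library totals, 84 with a filter of more than 1 CPM, 103 without a filter, 752 and 734 with DESeq2 without and with its prior, and 2 with the gene-length offset. Leaving out 1 library gave 0 to 368. The count was 0 without control replicate 1 (1568 at an unadjusted p under 0.05, edgeR), 368 without control replicate 2, 130 without control replicate 3, 4 without control replicate 4, and 13, 5 and 17 without *Fezf2 shRNA* replicates 1, 3 and 4. No member passed with edgeR in any alternative, and 0 passed in each fit that left out 1 library. DESeq2 called 2 members, with or without its prior: *Pde10a* (log2 fold changes of 0.50 and 0.38) and *Rarb* (0.36 and 0.30). The list genes past the threshold, 0 with edgeR, were 7 with either form of DESeq2 (among them *Adarb2*, *Cnp*, *Dcx*, *Fezf2*, *Foxp1* and *Mog*) and between 0 and 2 when 1 library was left out (*Dcx* and *Foxp1* without *Fezf2 shRNA* replicate 2).

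With the replicate number as a block, 90 genes, 0 members and 2 list genes (*Mag* and *Cldn11*) passed, and with block and gene-length offset 2 genes and 0 members did. Samples with the same number had correlated deviations of 0.307, 0.0931, -0.133 and 0.167, so the numbers were not taken to pair the samples.

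*Drd2* turned to -0.0015 with library totals and -0.062 with the gene-length offset. Leaving out 1 library gave log2 fold changes of -0.41 to -0.12 for *Drd1*, -0.17 to 0.18 for *Drd2*, -0.63 to -0.12 for *Adora2a*, -0.29 to -0.11 for *Ppp1r1b*, -0.14 to 0.18 for *Rgs9*, -0.28 to -0.13 for *Penk*, -0.59 to 0.078 for *Tac1* (the latter without control replicate 2), 0.39 to 0.65 for *Pde10a* and 0.30 to 0.40 for *Rarb*. *Rgs9* had no value in 4 of these because it then fell under the filter. The highest summed level of the members was 1.30 times the lowest, and 1.89 times with the widest transcripts, 1.57 times without *Pde10a* and *Rarb* and 1.44 times by geometric mean. The causes of these changes were not tested.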

Other observations

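*Drd1* alone had other neighbours than the mean of the members. This was looked at after the values were seen. Of 9945 genes ranked by Pearson's r with *Drd1* over the 8 libraries, the first were *Scn4b* (0.945), a sodium channel subunit on the list of striatal genes, *Sulf1* (0.943), *Adcy1* (0.931) and *Kcna1* (0.923), and the first 10 also held *Syt6* (0.911), a marker of deep-layer neurons on the list used above, and *Bcl11b* (0.905), a transcription factor of both striatal projection neurons and corticospinal neurons.

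*Drd2* ran opposite to the summed oligodendrocyte markers (r = -0.757, exact permutation test, p = 0.0313, adjusted p = 0.354 over 63 relations; rho = -0.762), with *Drd2* at only 15 to 35 reads a library. *Tacr3*, the neurokinin B receptor gene, was under the filter and its treatments did not overlap, at 3.41 to 3.61 CPM in the controls and 3.81 to 5.19 CPM with *Fezf2 shRNA* (log2 fold change 0.41, standard error 0.146, adjusted p = 0.295, edgeR without a filter). Among all genes tested, 7.41% had no overlap in this direction. The interval of *Tacr3* is 106 kb, and tested genes between 100 and 300 kb had a median log2 fold change of 0.15. *Tacr3* was named after its values were seen.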
